A study of Mus musculus with 8 samples.

Results

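The subunits of oxidative phosphorylation (OXPHOS) were followed in single cells of mouse inguinal white adipose tissue. Members were taken by gene symbol, as every mt-Nd, mt-Co, mt-Cytb and mt-Atp gene and every nuclear gene matching the Nduf, Sdh, Uqcr, Cox4 to Cox8 and Atp5 naming patterns, with names ending in -ps or starting with Gm dropped (here Ndufb1-ps). This gave 106 of the 32285 genes in the files, 13 encoded by the mitochondrial genome and 93 by the nucleus on 19 chromosomes. Complex I contributed 7 mitochondrial-encoded and 46 nuclear-encoded members, complex II 4 nuclear-encoded, complex III 1 and 8, complex IV 3 and 18, and complex V 2 and 17. The symbol pattern also admitted 8 assembly factors (Ndufaf genes), and it placed Ndufa4 with complex I although its product is now assigned to complex IV.

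The study compared C57BL/6 mice fed freely (Ad-Lib) with mice that had access to food only in 2 windows of the dark phase (TAN), and asked how timed feeding remodels the tissue. The stromal vascular fraction (SVF), the cells that pellet after collagenase digestion, straining and red cell lysis, was loaded without sorting onto the 10x Chromium 3′ v3 system, with 4 libraries per group, Ad-Lib 1, 3, 5 and 7 and TAN 2, 4, 6 and 8. No genetic change is named for either group, the labels give an age of 8 weeks for all 8 libraries, and the study's own text describes older male mice fed this way for several months. The study's text speaks of the libraries as animal replicates, while the labels do not tie a library to a mouse, and p-values measure the spread between libraries.

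The respiratory chain passes electrons from NADH (complex I) and succinate (complex II) through ubiquinone to complex III and on by cytochrome c to oxygen at complex IV. Complexes I, III and IV pump protons across the inner mitochondrial membrane, and complex V, the ATP synthase, uses that gradient to make ATP. All complexes except II combine subunits from both genomes: the mitochondrial genome is transcribed inside the organelle as long polycistronic RNAs, while nuclear subunits are transcribed individually, translated in the cytosol and imported. In white fat the chain is sparse compared with brown fat, and mitochondrial content is known to rise when white fat browns.

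Because the mitochondrial-encoded subunits share precursor RNAs and in places share bases, they are not independent measurements. A pair of overlaps is shown because reads there cannot be assigned to 1 gene with certainty, with the shared bases in capitals and 15 bases of each neighbouring side in lower case (GRCm38, plus strand). The 43 shared bases of mt-Atp8 and mt-Atp6, both parts of the ATP synthase membrane sector, lie at chrM:7927-7969, and the 7 shared bases of mt-Nd4l and mt-Nd4, both parts of the complex I membrane arm, at chrM:10167-10173.
mt-Atp8/mt-Atp6: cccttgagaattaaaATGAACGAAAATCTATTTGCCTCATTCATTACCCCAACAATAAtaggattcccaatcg
mt-Nd4l/mt-Nd4: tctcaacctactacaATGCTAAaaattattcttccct

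Of the nuclear-encoded members, Atp5g1, Atp5g2 and Atp5g3 are shown next, since Atp5g1 is the nuclear member on which a feeding difference turned. They encode the same mature c subunit, the proton-carrying ring of the ATP synthase, behind different import peptides. The 250 bases before each annotated start are given 5′ to 3′ on the gene's own strand (RefSeq, GRCm38.p6), at chr11:96075632-96075881 for Atp5g1, chr15:102671048-102671297 for Atp5g2 and chr2:73911327-73911576 for Atp5g3, all on the minus strand. Capitals mark matches on either strand to the NRF1 core GCGCATGC. They occur in Atp5g2, as 2 overlapping matches on opposite strands that form 1 run, and not in the windows of Atp5g1 and Atp5g3. The Atp5g2 window lies inside the gene by its GENCODE coordinates (chr15:102662864-102672352), so it precedes a start within the gene. The contrast between the copies holds only for the starts taken here.
Atp5g1: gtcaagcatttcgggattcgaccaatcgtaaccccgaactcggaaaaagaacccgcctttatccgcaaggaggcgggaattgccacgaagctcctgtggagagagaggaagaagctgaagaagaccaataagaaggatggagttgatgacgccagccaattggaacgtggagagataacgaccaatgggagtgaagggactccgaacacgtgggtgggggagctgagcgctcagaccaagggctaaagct
Atp5g2: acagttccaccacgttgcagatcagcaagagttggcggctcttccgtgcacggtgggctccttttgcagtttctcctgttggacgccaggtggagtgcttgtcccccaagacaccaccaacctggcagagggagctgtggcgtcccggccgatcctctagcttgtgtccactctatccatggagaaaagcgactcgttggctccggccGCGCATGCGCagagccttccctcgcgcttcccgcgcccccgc
Atp5g3: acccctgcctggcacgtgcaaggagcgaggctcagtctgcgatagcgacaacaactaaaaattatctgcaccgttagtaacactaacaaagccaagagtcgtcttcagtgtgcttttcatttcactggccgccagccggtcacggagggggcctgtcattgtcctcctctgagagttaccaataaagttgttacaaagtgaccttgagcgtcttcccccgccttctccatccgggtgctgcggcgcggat

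NRF1, the ETS-family factor GABP and YY1 are known regulators of nuclear OXPHOS genes. The promoter table held 75 of the 93 nuclear-encoded members, each with 250 bases before and 50 after the start, and was searched on both strands. The NRF1 core was found in 12 of the 75 (16%) and in 3.37% of all 20267 promoters. The YY1 core AAGATGGC was found in 9 of them (12%) and in 3.08% of all promoters, and the ETS core CCGGAAGT in 5 (6.67%) and 4.95%. These shares are descriptions of letters in a window.

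The 8 libraries held 44427 barcodes, between 4475 and 8021 each, and 25320800 to 37140950 UMIs (unique molecular identifiers, 1 per captured RNA molecule). A total of 36370 cells passed the limits of 700 to 30000 UMIs, 200 to 8000 genes and at most 10% mitochondrial UMIs. That last share is made of the same 13 members studied here, so the limit truncates their distribution, and where lifting it changed a call or a count, the value without it stands beside the result. Lifting it also meant clustering the cells anew, which moved cells between classes, so values are also given with the 10% limit put back on the classes of that second clustering. Clustering, with all members left out of the genes that drove it, gave 33 clusters, of which 26 were assigned to 12 cell classes by marker genes and 7, with 3634 cells, stayed unnamed. Markers were highest in their own class for all tested genes of APC-like (adipose progenitor), adipocyte-like, endothelial-like, Schwann-like, B-like, T/ILC-like and erythroid-like cells, and for all but Cspg4 in mural-like, Ly6c2 in macrophage-like and Zbtb46 and Cd209a in dendritic-like cells. Mature adipocytes float and are lost from a pelleted fraction, and the 1801 adipocyte-like barcodes, although high in Cfd, Car3 and Adipoq, had a median of only 1112 UMIs. Mast-like and neutrophil-like cells were too few to be fitted. The libraries shared 252 barcode sequences, 174 of them among the cells kept.

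UMIs of all cells of a class in a library were summed, and levels are given as CPM, the UMIs of a gene or sum scaled to a fixed library total, in the order Ad-Lib 1, 3, 5 and 7, then TAN 2, 4, 6 and 8. A 3′ UMI counts a molecule once whatever its length, and levels are compared across classes and groups rather than between genes. The 2 genomes ranked the cell classes differently. The nuclear-encoded sum was highest in adipocyte-like cells, with a mean of 32818 CPM over the 8 libraries, followed by mural-like cells with 20440.4, the first above the second in 8 of 8 libraries (mean log2 difference 0.68 ± 0.15, SD). Dendritic-like cells (17399) lay below mural-like cells in all libraries, T/ILC-like (16501) and endothelial-like cells (16299) did not separate from each other (4 of 8 libraries each way), and macrophage-like (13007) and APC-like cells (12893) did not either (5 of 8). Erythroid-like cells were lowest with 9635.

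The mitochondrial-encoded sum was also highest in adipocyte-like cells, at 48676, but B-like cells came second at 40008, below adipocyte-like and above mural-like cells (34928) in 8 of 8 libraries. T/ILC-like cells had 29305, endothelial-like 26494 and macrophage-like 25283, and the last 2 could not be ordered (4 of 8 libraries). Dendritic-like (19847) and APC-like cells (19338) had the lowest means over the 8 libraries and did not separate from each other (5 of 8), and in Ad-Lib alone erythroid-like cells were lower, with a mean of 15900.3 against 18013 in APC-like cells. The ratio of the 2 sums therefore ran from 1.03 in dendritic-like to 2.83 in B-like cells of Ad-Lib mice. These ratios describe classes of very different depth and are given without a test.

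**Figure D1:**
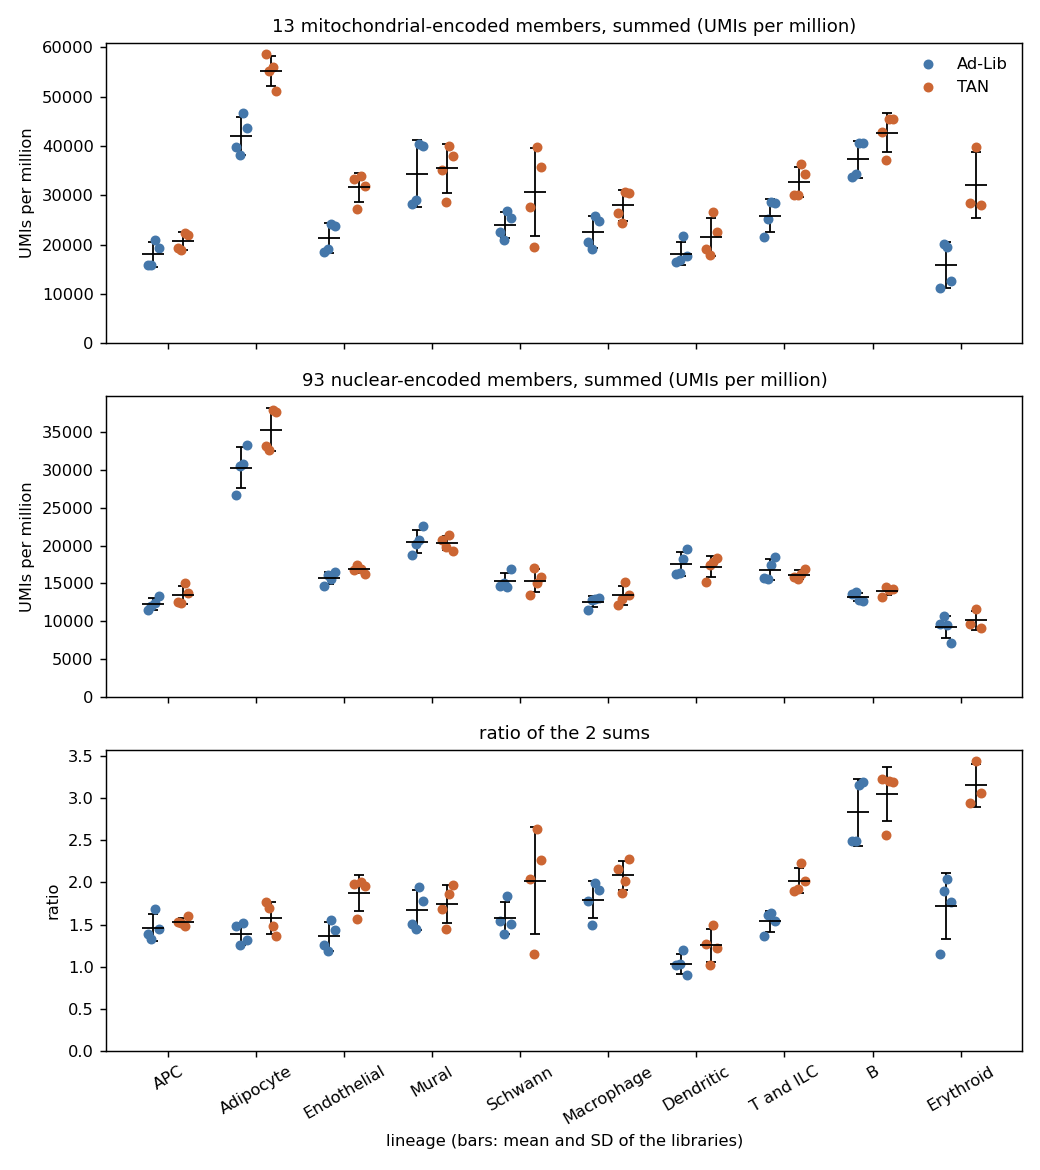
CPM of the 13 mitochondrial-encoded members, of the 93 nuclear-encoded members and the ratio of these sums (y axes, 3 panels) in each cell class (x axis), with 1 point per library coloured by feeding group and bars at the mean and SD. The mitochondrial-encoded sum is higher in TAN without overlap in adipocyte-like, endothelial-like, T/ILC-like and erythroid-like cells, while the nuclear-encoded sum overlaps between groups in all 10 classes, all in the first clustering, with the 10% mitochondrial limit in place.

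With TAN feeding the mitochondrial-encoded sum had the higher mean in all 10 classes, by amounts that differed between classes, and the log2 ratios of the nuclear-encoded sum lay between -0.06 and 0.22. Whole libraries differed too. Over all barcodes the median mitochondrial share was 1.79, 2.07, 2.54 and 2.27% in Ad-Lib and 3.09, 2.80, 4.24 and 3.46% in TAN, without overlap. The classes come from the same libraries and are not separate observations, and the part of this library-wide difference was not tested. In endothelial-like cells the mitochondrial-encoded sum was 18508, 19055, 24166 and 23787 in Ad-Lib and 33300.0, 27287, 33941 and 31908 in TAN, means of 21379 ± 3012 and 31609 ± 3004 (SD, n = 4) and a log2 ratio of 0.56. All 4 TAN libraries lay above all 4 Ad-Lib libraries. The nuclear-encoded sum in the same cells was 14727, 16062, 15585 and 16522 in Ad-Lib and 16759, 17462, 16966 and 16309.7 in TAN, overlapping, with a log2 ratio of 0.10. By complex, the nuclear-encoded sums of complex III (1479 to 1641 against 1667 to 1781) and complex IV (3432 to 3999 against 4016 to 4219.8) separated the groups with TAN higher, by log2 ratios of 0.11 and 0.13, and those of complexes I, II and V overlapped. The ratio of the sums went from 1.36 ± 0.167 to 1.88 ± 0.210, again without overlap.

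In adipocyte-like cells both sums had higher means in TAN. The mitochondrial-encoded sum was 39783, 38163, 46662 and 43722 in Ad-Lib and 58573, 55264, 56010.5 and 51227 in TAN, a log2 ratio of 0.39. The nuclear-encoded sum was 26727, 30475, 30750.3 and 33302 against 33196, 32572, 37881 and 37643, a log2 ratio of 0.22 with TAN 2 and TAN 4 below Ad-Lib 7. In the second clustering the nuclear-encoded sum also separated the groups. Without the limit it was 29161 to 34295 in Ad-Lib and 38138 to 40938 in TAN (log2 ratio 0.29), and with the limit put back 29580.1 to 35307 and 38455 to 45294 (log2 ratio 0.35), from 651 and 668 cells in place of 821 and 980. As a mean of single-cell shares it separated them narrowly in the first clustering as well. T/ILC-like cells had a mitochondrial-encoded sum of 21455, 25108, 28656 and 28367 in Ad-Lib and 30154, 30076, 36321 and 34299 in TAN (log2 ratio 0.34) and a nuclear-encoded log2 ratio of -0.06. TAN 2 and TAN 4 were the lower TAN libraries there, and both still exceeded Ad-Lib 5 and 7. The single nuclear-encoded members of this class did not share the sign of their sum. On libraries scaled by a trimmed mean, as in the tests of single members, 68 of 85 had a positive log2 fold change, with a median of 0.08. Without the limit the T/ILC-like groups overlapped, 19989.5 to 29734 against 28428 to 37931 (log2 ratio 0.33). With the limit put back on the same classes they lay narrowly apart, 19812 to 28185 against 28248 to 36724 (log2 ratio 0.35), from 1032 and 3551 cells in place of 980 and 3185.

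APC-like cells, the most numerous class with 9586 cells, did not separate by group. Their mitochondrial-encoded sum was 15937, 15862, 20981 and 19271 in Ad-Lib and 19309.9, 18907, 22417 and 22015 in TAN, with a log2 ratio of 0.20 and overlapping groups, and their nuclear-encoded log2 ratio was 0.13. In mural-like cells (pericytes and smooth muscle) the mitochondrial-encoded sum was 28144, 29079, 40425 and 40012 in Ad-Lib and 35144, 28612, 39987 and 38025 in TAN, a log2 ratio of 0.04. Macrophage-like (0.31), B-like (0.19), dendritic-like (0.24) and Schwann-like cells (0.36) had positive log2 ratios with overlapping groups. Without TAN 6 the dendritic-like ratio was 0.13 and the Schwann-like 0.21. In the second clustering the dendritic-like class held 98 Ad-Lib and 123 TAN cells under the limit in place of 155 and 442, and the ratio was 0.12 both with the limit and without it. By pooled cells the dendritic-like class also differed in makeup, with the cluster led by Ccl5, Apol7c and Epsti1 holding 56 Ad-Lib and 327 TAN cells. TAN 6 held 298 of the 442 TAN dendritic-like cells, against 12, 81 and 51 in TAN 2, 4 and 8. The pooled counts therefore do not show a shift shared by the TAN libraries. The other cluster, led by Irf8 and Naaa, had a log2 ratio of 0.11. Erythroid-like cells had the largest log2 ratio, 1.01, but 69 Ad-Lib and 326 TAN cells in all, with TAN 4 left out for having under 10 cells and 264 of the TAN cells in TAN 6. The TAN 6 cells had a median of 987 UMIs, against 4366 and 5254 in TAN 2 and TAN 8 and 5140 to 7254 in Ad-Lib. Summed APC markers in this class ranged over 3762 to 21026.5 CPM in Ad-Lib and 173 to 5971 in TAN. The part of these values was not tested.

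Within both groups the libraries fell in a recurring order. Ad-Lib 1 and 3 lay below Ad-Lib 5 and 7 in 9 of 10 classes, and TAN 2 and 4 below TAN 6 and 8 in 7 of 9. The labels name no batch that separates these libraries, this order was noticed in the values, and its part in the group difference was not tested.

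**Figure D2:**
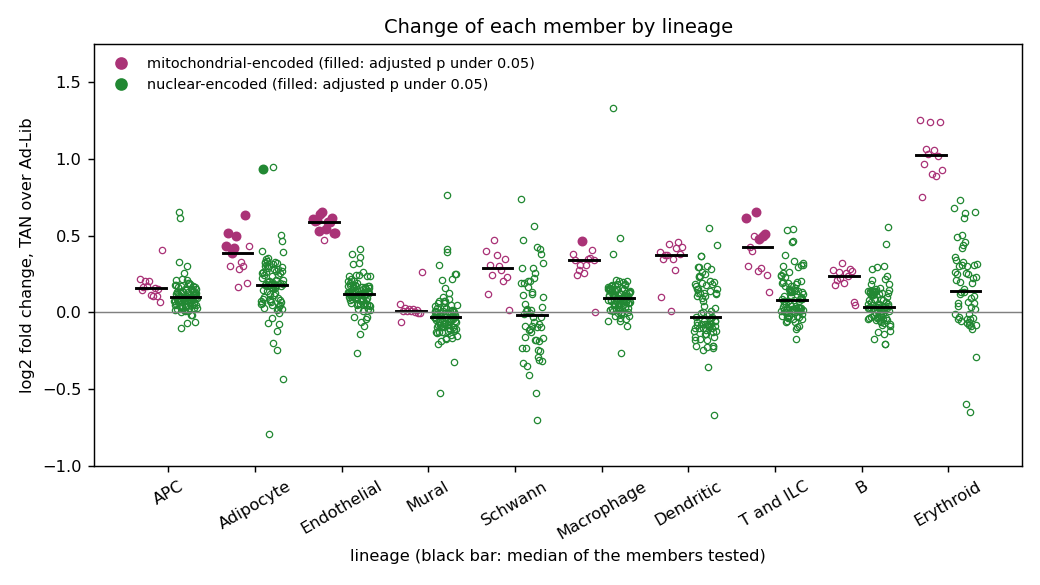
Log2 fold change TAN over Ad-Lib of each tested member (y axis) in the 10 fitted classes (x axis), with mitochondrial-encoded members on the left and nuclear-encoded on the right of each class, filled where the adjusted p is under 0.05, and a black bar at each median. In endothelial-like cells the 13 mitochondrial-encoded points lie between 0.47 and 0.66 and the nuclear-encoded median is 0.12.

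Single members were tested with edgeR's quasi-likelihood test on the summed counts across all genes passing the low-count filter, with Benjamini-Hochberg adjustment, and a member was called at an adjusted p under 0.05 with at least a 1.5-fold change. Of the 106 members 104 passed the filter in at least 1 class and 63 in all 10. In endothelial-like cells 12 of the 13 mitochondrial-encoded members were higher in TAN at an adjusted p under 0.05, where the share of all genes was 2.08%, and 8 also passed 1.5-fold, where it was 0.966%. The count at 1.5-fold fell to 2 without Ad-Lib 1, Ad-Lib 3 or TAN 2 and to 4 without TAN 6, while 10 to 13 members had an adjusted p under 0.05. These fold changes come from libraries scaled by a trimmed mean. On plain means mt-Cytb (log2 ratio 0.63), mt-Co3 (0.61) and mt-Nd4l (0.59) reached 1.5-fold, and the other called members fell just short, at 0.56 to 0.58. None of the 88 nuclear-encoded members tested there passed, while 16 had an unadjusted p under 0.05, as did 17.8% of all genes, and DESeq2 placed 1 under an adjusted p of 0.05. The 13 mitochondrial-encoded log2 fold changes lay within 0.47 to 0.66 with a median of 0.59, against a nuclear-encoded median of 0.12 and an all-gene median of -0.00177. Every TAN value lay above every Ad-Lib value for 10 of the 13 and for 12 of the 88 nuclear-encoded members, which the test did not call, and for 4.39% of all genes.

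mt-Cytb, cytochrome b, the catalytic subunit of complex III carried on the mitochondrial genome, gave the smallest adjusted p. Its levels in endothelial-like cells were 1860.0, 1897, 2275 and 2396 in Ad-Lib and 3468, 2924, 3415 and 3223 in TAN. The groups did not overlap, TAN 4 being the lowest TAN library, and the log2 fold change was 0.66 ± 0.09 (SE, adjusted p = 0.00138). For complex IV, mt-Co3, a core subunit of cytochrome c oxidase, stood at 2179.5, 2259.9, 2797 and 2795 in Ad-Lib and 4054, 3215, 4153 and 3938 in TAN, a log2 fold change of 0.64 ± 0.10 (adjusted p = 0.00255). mt-Co1, the subunit that reduces oxygen, had 2723, 2845, 3841 and 3647 and 5113, 4178, 5016 and 5141, a log2 fold change of 0.60 ± 0.11 (adjusted p = 0.00546). In both genes every TAN library exceeded every Ad-Lib library.

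For complex V, mt-Atp6, the proton channel subunit, measured 4359, 4448, 5399.9 and 5535 in Ad-Lib and 7789, 6500.1, 8044 and 7275 in TAN, without overlap, and its log2 fold change was 0.61 ± 0.10 (adjusted p = 0.00293). For complex I, mt-Nd4, a proton-pumping membrane subunit, measured 1176, 1202, 1577 and 1499 in Ad-Lib and 2115, 1729, 2150.2 and 2059 in TAN (log2 fold change 0.59 ± 0.10, adjusted p = 0.00387). mt-Nd6, also of complex I, is the only mitochondrial-encoded member transcribed from the opposite strand and stood at 29.4, 34, 43.2 and 40.6 in Ad-Lib and 53.3, 42.5, 53.1 and 57 in TAN. TAN 4 fell below Ad-Lib 5 there, and the log2 fold change of 0.51 ± 0.12 still passed (adjusted p = 0.0208). The only mitochondrial-encoded member that did not was mt-Nd1, another complex I membrane subunit, with a log2 fold change of 0.47 ± 0.14 and an adjusted p of 0.0679.

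**Figure D3:**
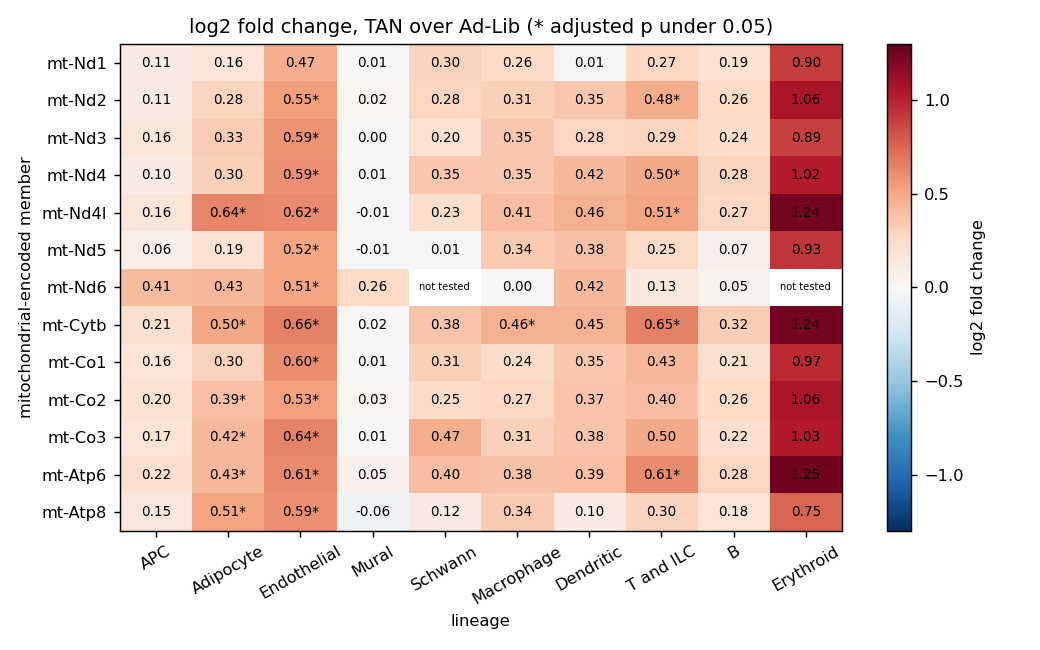
Heat map of the log2 fold change TAN over Ad-Lib of the 13 mitochondrial-encoded members (y axis) in the 10 fitted classes (x axis), with each value printed in its cell, a star at an adjusted p under 0.05 and the colour scale at the right. The endothelial-like column is starred for 12 of 13 members, the mural-like column lies near 0 for all but mt-Nd6, and mt-Nd6 was not tested in Schwann-like and erythroid-like cells.

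The endothelial-like clusters were not uniform. The 2 largest, led by Btnl9, Kdr and Car4 (2621 cells) and by Aqp1, Cldn5 and Gpihbp1 (3238 cells), had log2 ratios of the mitochondrial-encoded sum of 0.63 and 0.64, both without overlap. In the first of them the nuclear-encoded sum also lay higher in TAN without overlap, with means of 14976 and 16183 (log2 ratio 0.11), and in the second it overlapped (0.15). The cluster led by Stmn2, Fbln5 and Sema3g (712 cells) had 0.38 and the one led by Plvap, Lrg1 and Selp (411 cells) 0.09, both overlapping. Differences between these clusters were not tested. Over all 24 clusters with at least 3 usable libraries per group the mitochondrial-encoded sum had the higher TAN mean in 24 and the nuclear-encoded sum in 20, the log2 ratio of the former exceeded that of the latter in 21, and the groups separated in 7 and 2 clusters respectively. These clusters share the same libraries and are not separate observations.

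Other properties of the endothelial-like libraries were measured beside these results. The summed dissociation genes (such as Fos, Jun and Hspa1a) ranged over 12662 to 14909.6 in Ad-Lib and 6134 to 14720.1 in TAN, overlapping, and ribosomal protein genes, Malat1 and the median UMIs per cell overlapped too. Summed APC markers were lower in TAN, 260.5 to 574 against 159.9 to 224, and their part was not tested. A share of 0.723% of Ad-Lib and 2.29% of TAN endothelial-like cells exceeded 10% mitochondrial UMIs, and with the limit lifted and the cells reclustered, as for all such values, the log2 ratio of the sum was 0.59.

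In APC-like cells none of the 13 mitochondrial-encoded and none of the 90 nuclear-encoded members tested passed an adjusted p under 0.05, against 0.235% of all genes higher in TAN. At an unadjusted p under 0.05 there were 4 and 10 (13.6% of all genes), and DESeq2 placed 2 mitochondrial-encoded members under an adjusted p of 0.05. All 13 mitochondrial-encoded log2 fold changes were nevertheless positive, with a median of 0.16, and so were 85 of the 90 nuclear-encoded, with a median of 0.10. The mt-Cytb levels were 1448, 1432, 1887 and 1774 in Ad-Lib and 1808, 1838, 2008 and 2015 in TAN, overlapping, for a log2 fold change of 0.21 ± 0.08 (adjusted p = 0.268). mt-Nd6 levels were 17.1, 18.5, 23.5 and 19.2 and 25, 22.8, 32.9 and 25.7, with TAN 4 below Ad-Lib 5, for a log2 fold change of 0.41 ± 0.10 (adjusted p = 0.088). The lowest TAN library exceeded the highest Ad-Lib library for 0 of the 13 and 11 of the 90, against 4.31% of all genes, and 1 APC-like cluster, led by Cxcl14 and Smoc2, had a nuclear-encoded sum that separated the groups, with a mean of 12238 in Ad-Lib and 14685 in TAN.

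The change in endothelial-like cells was tested against that in APC-like cells of the same libraries, with library as a block. For 11 of 13 mitochondrial-encoded members it was larger in endothelial-like cells at an adjusted p under 0.05, against 1.27% of all genes, and 0 of them differed by 1.5-fold. mt-Nd4 gave the smallest adjusted p, with a difference in log2 fold change of 0.51 ± 0.09 (SE, adjusted p = 0.00842), and mt-Cytb differed by 0.47 ± 0.09 (adjusted p = 0.013). mt-Co2 (0.35 ± 0.09, adjusted p = 0.0517) and mt-Nd6 (0.15 ± 0.13, adjusted p = 0.706) did not pass, and 0 of 90 nuclear-encoded members did, with 2 at an unadjusted p under 0.05 (1619 of 12572 genes in all). The count of 11 depended on single libraries and was 1 without TAN 2, 4 without Ad-Lib 7 and 5 without TAN 8. The same edgeR comparison found 0 mitochondrial-encoded members for macrophage-like cells (0.0865% of all genes), 0 for T/ILC-like cells (0.349%) and 0 for adipocyte-like cells (0.731%), with 5, 6 and 4 at an unadjusted p under 0.05, where all genes counted 1275 of 12721, 2148 of 12912 and 980 of 11498. For adipocyte-like cells the 0 depended on the mitochondrial limit. Without it the change was larger than in APC-like cells for 12 of 13 mitochondrial-encoded members at an adjusted p under 0.05 (against 1.26% of all genes), 7 of them by 1.5-fold, with a median difference of 0.59 on the log2 scale in place of 0.22, and for 5 nuclear-encoded members in place of 1. With the limit put back on the same classes the mitochondrial-encoded count was 0 again, against 0.594% of all genes, with 4 at an unadjusted p under 0.05 and a median difference of 0.26, and the nuclear-encoded count was 2. For macrophage-like and T/ILC-like cells the mitochondrial-encoded count was 0 by edgeR without the limit as well, with 5 and 4 at an unadjusted p under 0.05.

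In adipocyte-like cells 6 of 13 mitochondrial-encoded members were higher in TAN at an adjusted p under 0.05, against 2.31% of the 3499 genes tested, and 1 of them, mt-Nd4l, passed 1.5-fold, against 1.86%. The former count was 3 without Ad-Lib 1 or TAN 4 and 2 without TAN 2, Ad-Lib 3 or Ad-Lib 7. The call of mt-Nd4l was lost without Ad-Lib 1, TAN 2 or TAN 6, at Leiden resolution 2, with members among the variable genes and in cells of at least 2000 UMIs. mt-Nd4l, the small complex I subunit whose end overlaps mt-Nd4 in the bases printed above, had 527, 674, 741 and 723 in Ad-Lib and 1108, 1005, 1229 and 877 in TAN. The lowest TAN library, TAN 8, still exceeded the highest Ad-Lib library, and the log2 fold change was 0.64 ± 0.13 (adjusted p = 0.00239). mt-Cytb had 3957, 3969, 4680.0 and 4351 and 6338, 6464, 5812 and 5476, also without overlap, and a log2 fold change of 0.50 ± 0.11 (adjusted p = 0.00666). The other 4 below 0.05 were mt-Atp6 (0.43 ± 0.11) and mt-Atp8 (0.51 ± 0.14) of complex V and mt-Co2 (0.39 ± 0.11) and mt-Co3 (0.42 ± 0.11) of complex IV. The groups were separate, TAN above Ad-Lib, for 9 of 13 mitochondrial-encoded and 13 of 82 nuclear-encoded members, against 5.32% of all genes.

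The limit on mitochondrial share bore on this class more than on any other. Over 10% mitochondrial UMIs were found in 23.2% of Ad-Lib adipocyte-like cells (libraries 14 to 28.6%) and 41.5% of TAN ones (32.4 to 52.5%). Without the limit the mitochondrial-encoded sum was 65520.4 ± 10099 in Ad-Lib and 102622 ± 13587 in TAN, a log2 ratio of 0.65, and all 13 members passed an adjusted p under 0.05. With the limit put back on the same classes the log2 ratio was 0.44 and 6 members passed. Restricted to cells of at least 2000 UMIs, 0 of 12 passed by edgeR and 3 had an unadjusted p under 0.05, while all 12 log2 fold changes were positive, with a median of 0.40 beside 0.39 in all cells. Ribosomal protein genes were higher in TAN in this class (89443 to 94060.2 against 94205 to 118825), and dissociation genes (5208 to 6949.7 against 2037 to 3708) and APC markers were lower. Their part in the result was not tested.

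In T/ILC-like cells 5 of 13 mitochondrial-encoded members passed an adjusted p under 0.05, against 1.59% of all genes, and 2 of them, mt-Cytb and mt-Atp6, passed 1.5-fold, against 1.21%. The latter count was 0 without Ad-Lib 1, Ad-Lib 5, Ad-Lib 7, TAN 4 or TAN 6 and 1 without TAN 8, so these calls rest on single libraries. The count of 5 was 0 without any of the same 5 libraries, 1 without TAN 8 and 9 without Ad-Lib 3. Both counts were 1 with doublets removed and 1 in the second clustering with the limit put back, and 0 by edgeR without the limit, where 9 members had an unadjusted p under 0.05. mt-Cytb had 1619.8, 2139.7, 2153 and 2291 in Ad-Lib and 2669.9, 2647, 3254 and 3038 in TAN, with Ad-Lib 1 well below the other Ad-Lib libraries and no overlap. Its log2 fold change was 0.65 ± 0.14 (adjusted p = 0.0258) on libraries scaled by a trimmed mean, and the log2 ratio of the plain means was 0.50. mt-Atp6 had 4992, 6214, 6359 and 6545 and 7386, 7981, 9352 and 8420.3, a log2 fold change of 0.61 ± 0.15 (adjusted p = 0.0375) and a log2 ratio of the plain means of 0.46. On plain means neither gene reached 1.5-fold. None of the 85 nuclear-encoded members tested passed, with 11 at an unadjusted p under 0.05 (23.4% of all genes), 0 by DESeq2 and 6 without Ad-Lib 3. Separation of the groups with TAN above was found for 5 of 13 and 0 of 85, against 3.21% of all genes. The class held 980 Ad-Lib and 3185 TAN cells. By library these were 168, 508, 179 and 125 in Ad-Lib and 269, 968, 1529 and 419 in TAN, overlapping. Pooled over libraries, 2 clusters led by Lef1 and Tcf7 held 107 and 135 Ad-Lib against 1008 and 1092 TAN cells. Only 1 and 2 Ad-Lib libraries were usable in these clusters. In the 2 clusters that could be compared within themselves, the log2 ratios of the mitochondrial-encoded sum were 0.35 and 0.29, both without overlap. Ribosomal protein genes were higher in TAN in this class (198225 to 289093 against 294113 to 358883), while Malat1 (13750.3 to 19072 against 12906 to 13621) and summed APC markers (305 to 886 against 122 to 165) were lower. Summed B markers ranged over 97.1 to 4631 in Ad-Lib and 193 to 284 in TAN. The part of these values in the result was not tested.

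Macrophage-like cells had 1 mitochondrial-encoded member at an adjusted p under 0.05, against 0.123% of all genes, and none at 1.5-fold. This was mt-Cytb, with 1399, 1336, 1751 and 1768 in Ad-Lib and 2056, 1929, 2303 and 2281 in TAN, no overlap, and a log2 fold change of 0.46 ± 0.09 (adjusted p = 0.0447). It fell short when any library other than Ad-Lib 3 was left out, and no member passed without the mitochondrial limit, while 1 did in the second clustering with the limit put back. DESeq2 placed 8 mitochondrial-encoded members under an adjusted p of 0.05. mt-Nd6 in the same cells had a log2 fold change of 0.00 ± 0.11. The 2 groups were fully apart, with TAN higher, for 2 of 13 mitochondrial-encoded and 5 of 89 nuclear-encoded members, against 2.25% of all genes.

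No member passed an adjusted p under 0.05 in mural-like, Schwann-like, dendritic-like, B-like or erythroid-like cells, where the shares of all genes higher in TAN were 0.225%, 0%, 0%, 0.0268% and 0%. At an unadjusted p under 0.05 the mitochondrial-encoded counts were 0, 0, 7, 2 and 11, beside 10.1%, 6.17%, 11.4%, 3.29% and 5.02% of all genes, and DESeq2 placed 1 member, in erythroid-like cells, under an adjusted p of 0.05. In mural-like cells mt-Cytb had 2907, 3069, 4154 and 4363 in Ad-Lib and 3747, 3129, 4145 and 3840.2 in TAN, and the medians over members were 0.01 for mitochondrial-encoded and -0.03 for nuclear-encoded members. Of the Ad-Lib mural-like cells 4.47%, and of the TAN ones 11%, exceeded the mitochondrial limit, and without it the log2 ratio of the sum was 0.14. The difference of mural-like from endothelial-like cells was not tested. In B-like cells the median mitochondrial-encoded log2 fold change was 0.24, with 15 B-like cells in Ad-Lib 1. In erythroid-like cells, of 12 mitochondrial-encoded members tested, 9 lay higher in TAN without overlap, as did 2 of 56 nuclear-encoded, against 2.29% of all genes.

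Nuclear-encoded members are described next by complex. Across the 10 classes 1 nuclear-encoded member was called, Atp5g1 in adipocyte-like cells. As 1 of the 82 tested there, beside 1.86% of all genes called higher at the same threshold, it is not a result about the nuclear-encoded members as a group in the first clustering. The count in this class depended on the choice of cells. Without the limit 19 of 82 nuclear-encoded members were higher in TAN at an adjusted p under 0.05, against 4.81% of all genes, and 4 of them were called, against 3.68%. With the limit put back on the same classes 15 of 81 passed the adjusted p, against 4.35%, and 3 were called, against 3.35%. The parts of the limit and of the clustering in these counts were not tested. At a finer clustering (Leiden resolution 2) 10 of 78 passed the adjusted p, against 4.98%, and 3 were called, against 4.1%. With doublets removed 7 of 80 passed it, against 3.56%, and 1 was called, against 2.73%. In cells of at least 2000 UMIs 0 of 70 passed it by edgeR, against 1.14%, with 6 at an unadjusted p under 0.05. The levels of Atp5g1 were 126, 139.9, 119.6 and 140.1 in Ad-Lib and 191, 178, 285 and 393 in TAN, from 479 UMIs in all libraries together. Every TAN library lay above every Ad-Lib library, TAN 6 and TAN 8 furthest, and the mean went from 131 ± 10.2 to 262 ± 99.8 (SD, n = 4), a log2 fold change of 0.93 ± 0.21 (SE) with an adjusted p of 0.00794 by edgeR. The count of called nuclear-encoded members went from 1 to 0 without Ad-Lib 5 and to 2 without TAN 8. Compared with APC-like cells, the change of Atp5g1 was larger by 0.74 ± 0.20 on the log2 scale (adjusted p = 0.027), a difference that no longer passed without Ad-Lib 3 or without TAN 8.

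The other copies of the c subunit, whose upstream sequences are printed with that of Atp5g1 above, had smaller fold changes in the same cells. Atp5g2 had 329, 387, 319.8 and 366 in Ad-Lib and 435, 401, 475 and 393 in TAN, a log2 fold change of 0.26 ± 0.14 (adjusted p = 0.346). Atp5g3 had 456, 489.7, 452 and 551 and 494, 499, 631 and 571, a log2 fold change of 0.14 ± 0.13 (adjusted p = 0.63). Neither passed the test, and the difference between the 3 copies was not tested. In endothelial-like cells Atp5g1 had a log2 fold change of 0.23 ± 0.08 (adjusted p = 0.145).

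**Figure D4:**
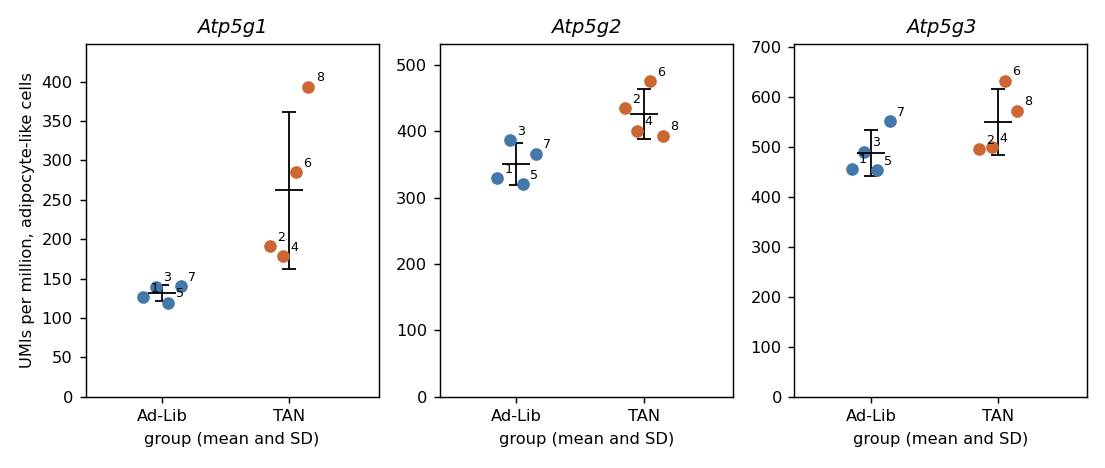
CPM of Atp5g1, Atp5g2 and Atp5g3 (y axes, 1 panel each) in adipocyte-like cells by feeding group (x axis), with 1 point per library labelled by its number and bars at the mean and SD. The 4 TAN libraries of Atp5g1 lie above all Ad-Lib libraries, with 8 and 6 highest.

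For complex I, Ndufa4, taken as the nuclear-encoded member with the highest level among those carrying Nduf symbols, averaged 369 over the classes and passed the test in none. The medians of the log2 fold changes of the nuclear-encoded complex I members were 0.17 in adipocyte-like, 0.11 in endothelial-like and 0.09 in APC-like cells, while those of their mitochondrial-encoded partners were 0.30, 0.55 and 0.11. The assembly factor Ndufaf4, picked after its value was seen, had a log2 fold change of 0.95 ± 0.33 in adipocyte-like cells (adjusted p = 0.109).

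Complex II, succinate dehydrogenase, has no mitochondrial-encoded part, and none of Sdha, Sdhb, Sdhc and Sdhd passed the test in any class. Sdhd, a membrane anchor, came closest in adipocyte-like cells with 65.9, 122, 114 and 113 in Ad-Lib and 140.0, 153, 143 and 168 in TAN, a log2 fold change of 0.50 ± 0.19 (adjusted p = 0.153). All TAN libraries lay above all Ad-Lib libraries there, Ad-Lib 1 being lowest. The sum of the 4 subunits in adipocyte-like cells was 626, 655, 715 and 705 in Ad-Lib and 738, 757, 767 and 857 in TAN, also without overlap. The nuclear-encoded sums of complexes I, III, IV and V overlapped in this class. Median levels over libraries were higher in adipocyte-like than in endothelial-like and APC-like cells for all 4 subunits. For Sdha, the flavoprotein that oxidises succinate, they were 253, 95.2 and 87.1. For Sdhb, the iron-sulphur subunit, they were 279, 95.8 and 73.3.

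For complex III, Uqcrh, a small subunit at the cytochrome c side, averaged 438 over the classes. Uqcrq in adipocyte-like cells, picked after its value was seen, had a log2 fold change of 0.39 ± 0.12 (adjusted p = 0.0653). In endothelial-like cells the nuclear-encoded complex III median was 0.14, beside 0.66 ± 0.09 for mt-Cytb, the mitochondrial-encoded member of the complex. For complex IV, Cox8a averaged 673, and Cox5a, a matrix-side subunit also picked after its value was seen, had log2 fold changes of 0.31 ± 0.09 in endothelial-like (adjusted p = 0.0681) and 0.33 ± 0.10 in APC-like cells (adjusted p = 0.145). For complex V, Atp5e, the epsilon subunit, averaged 477, and the nuclear-encoded medians were 0.22 in adipocyte-like and 0.13 in endothelial-like cells.

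Across cell classes the 3 widest ranges among members belonged to tissue isoforms, which replace a common subunit in some cells. The range over classes of the mean log2(CPM + 1) had a median of 1.54 for mitochondrial-encoded and 1.98 for nuclear-encoded members. It was widest for Ndufa4l2 (8.87), Cox4i2 (8.21) and Cox8b (6.05), followed by Ndufs1 (3.76), Cox6b2 (3.48), Cox6a2 (3.40), Ndufa9 (3.02), Uqcrc1 (2.95), Ndufs3 (2.69) and Cox7a1 (2.62). Several of these ranges involve low levels. The highest class mean was 6.83 CPM for Cox7a1 and 14.1 for Cox6b2. Ndufs1 and Ndufa9 were lowest in the small erythroid-like class, at means of 11.5 and 19.8 CPM. Adipocyte-like cells had the highest mean for 77 of the 93 nuclear-encoded members and 12 of the 13 mitochondrial-encoded, and erythroid-like cells the lowest for 63 nuclear-encoded members.

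Ndufa4l2 and Cox4i2 are the hypoxia-inducible isoforms of Ndufa4 and Cox4i1, and both were concentrated in mural-like cells. Ndufa4l2 stood there at 621, 655, 630.0 and 745 in Ad-Lib and 666, 691, 778 and 679.6 in TAN, with overlapping groups and a log2 fold change of 0.06 ± 0.10 (adjusted p = 0.908). Cox4i2 stood at 243, 247, 275 and 292 in Ad-Lib and 305, 349, 417 and 266 in TAN, a log2 fold change of 0.31 ± 0.12 (adjusted p = 0.345). Neither passed the test.

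Of the UMIs of each isoform and its partner in mural-like cells, Ndufa4l2 held 77.9% and Cox4i2 32.6% (libraries 29.2 to 41.3%). In endothelial-like cells these shares were 2.42% and 0.844%, and in macrophage-like cells 0.810% and 0.342%. In APC-like cells Ndufa4l2 held 13.9%, and Cox4i2 0.485%. Mural-like cells were also the lowest class for Ndufa4 itself, with a mean of 188. The single mural-like cluster held 84.8% of all Cox4i2 UMIs and 57.8% of those of Ndufa4l2, and a further 30.7% of Ndufa4l2 lay in the APC-like cluster led by Cxcl14 and Smoc2, at 108 CPM. Free RNA in droplets gives all classes a low share of an abundant gene, and shares of about 1% are not read as expression.

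**Figure D5:**
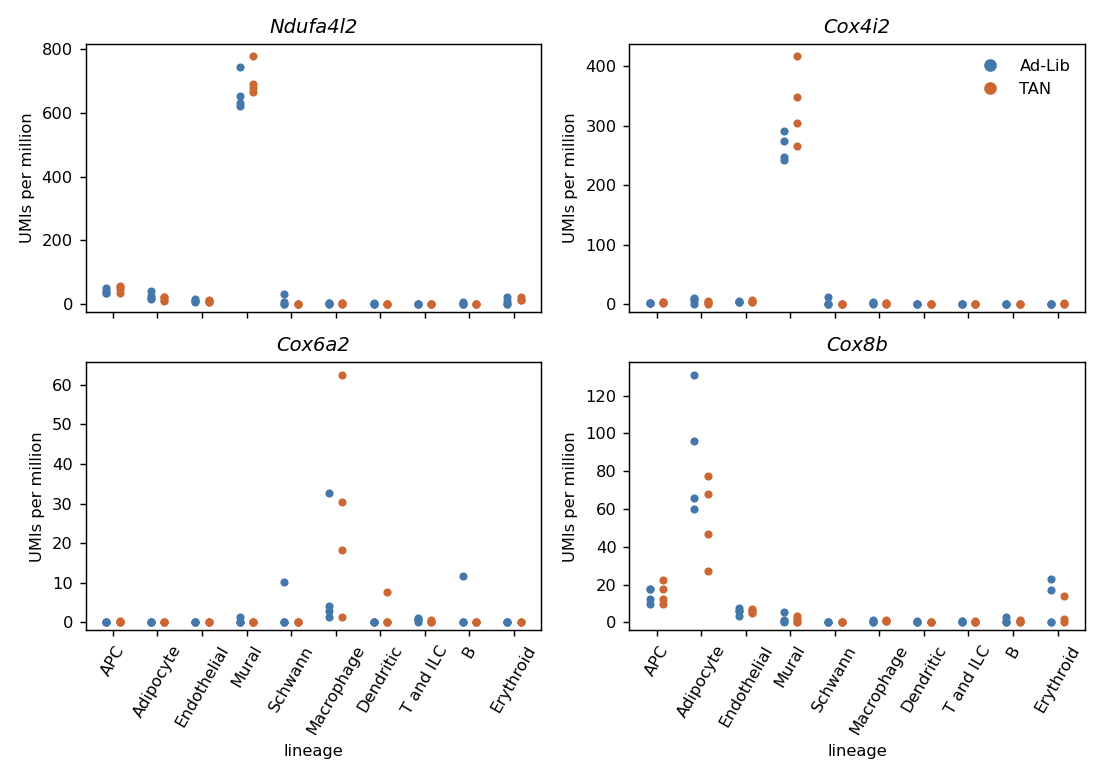
CPM of Ndufa4l2, Cox4i2, Cox6a2 and Cox8b (y axes, 1 panel each) in each cell class (x axis), with 1 point per library coloured by feeding group. Mural-like cells stand apart for Ndufa4l2 and Cox4i2, adipocyte-like cells for Cox8b, and the macrophage-like points of Cox6a2 are widely scattered.

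Cox8b, the isoform of Cox8a found in rodent heart, muscle and brown fat, was highest in adipocyte-like cells. It stood at 65.9, 95.7, 59.8 and 131 in Ad-Lib and 46.7, 27.1, 67.9 and 77.3 in TAN, overlapping, with a log2 fold change of -0.79 ± 0.30 (adjusted p = 0.152). Its share of the pair was 3.86% in adipocyte-like and 3.09% in APC-like cells, where the cluster led by Cxcl14 and Smoc2 held 61.2% of all Cox8b UMIs at 34.8 CPM (libraries 22.3 to 62.2). Cox7a1, another heart, muscle and brown fat isoform, held 0.970% of its pair with Cox7a2 in adipocyte-like and 2.04% in macrophage-like cells.

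Cox6a2, the heart and muscle isoform of Cox6a1, was found in macrophage-like cells at 4.24, 32.7, 1.45 and 2.94 in Ad-Lib and 1.39, 30.3, 62.5 and 18.3 in TAN. Libraries of the same group differed more than 10-fold, Ad-Lib 3 and TAN 4, 6 and 8 being high, and the log2 fold change of 1.33 ± 0.85 did not pass (adjusted p = 0.527). The cluster led by Lyz1, Ccr2 and Il1b held 82.1% of all its UMIs, with libraries from 1.13 to 142 CPM. Cox6b2, a testis isoform, was highest in mural-like cells, where it held 3.88% of its pair with Cox6b1.

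Other genes of the pathway were read from 3 lists. Of 12 genes of mitochondrial gene expression (such as Tfam, which packages mitochondrial DNA, and Polrmt, its RNA polymerase), 12 were tested in APC-like, 11 in endothelial-like, 11 in macrophage-like, 9 in T/ILC-like and 2 in adipocyte-like cells, and 0 passed edgeR's adjusted p under 0.05 in any class (1 at an unadjusted p under 0.05, in T/ILC-like cells, where 23.4% of all genes were). Of 10 regulators and uncoupling genes (such as Ppargc1a and Ucp1), 9 were tested in APC-like, 8 in mural-like, macrophage-like, T/ILC-like and B-like, 7 in endothelial-like, 2 in adipocyte-like and dendritic-like, 1 in erythroid-like and 0 in Schwann-like cells, and 0 of those tested passed, with 4 tests at an unadjusted p under 0.05, in adipocyte-like (1), macrophage-like (1) and T/ILC-like cells (2), beside 16.6%, 13.9% and 23.4% of all genes. Of 15 genes for cytochrome c, its partner in complex III and the tricarboxylic acid cycle, 2 passed, each 1 of 15 tested in its class beside the 2.31% and 1.59% of all genes given above, and neither by 1.5-fold. Cycs, cytochrome c itself, rose in adipocyte-like cells from a mean of 393 to 573, a log2 fold change of 0.51 ± 0.13 (adjusted p = 0.0203). Cyc1, the cytochrome c1 subunit of complex III that the symbol patterns do not include, rose in T/ILC-like cells by 0.47 ± 0.11 (adjusted p = 0.0304).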

How the data were processed

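Gene by cell matrices of raw UMI counts, deposited by the authors for each library, were read as they stand. Per the labels they came from Cell Ranger 3.0.2 and mm10 (GRCm38), although the file headers name Cell Ranger 6.0.1. Members and gene lists were chosen with earlier results of these data known. Cells were clustered with scanpy 1.11.5 (2000 variable genes without members, 30 principal components, Leiden resolution 1), and cluster naming thresholds were set after clusters had been seen. Predicted doublets were kept, and an alternative removed 1351. Counts were summed per library and class for classes with 10 or more cells in at least 3 libraries per group, and tested with edgeR 4.0.16 in R 4.3.3 (TMM, filterByExpr, quasi-likelihood, Benjamini-Hochberg). The difference of 2 classes in their TAN change was an interaction term with library as a block. Sums over members carry no test. The rule for named genes took called members, isoform pairs, 5 mitochondrial-encoded genes, the Sdh genes, the 10 widest ranges and 1 member per complex, and members named outside it (mt-Nd1, mt-Co2, mt-Atp8, Ndufaf4, Uqcrq, Cox5a, and mt-Co3 in adipocyte-like cells) were chosen after their values were seen. The scripts were tested on simulated data. Alternatives changed the normalisation, low-count filter, mitochondrial limit, clustering, doublets, cell depth and libraries used, and replaced edgeR by DESeq2 1.42.0.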

Additional observations from a re-analysis of the deposited data

Results flagged for a closer look

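The nuclear-encoded sum of macrophage-like cells in Ad-Lib 1, 11508 CPM (UMIs scaled to a fixed library total), lay far from the other 3 Ad-Lib libraries, which held 12808 to 13033. It was the only such sample among 52 groups of libraries looked at, where chance alone marks about 1 group in 20.

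The change with TAN feeding differed between cell classes for 12 members, by an interaction term in edgeR with Benjamini-Hochberg adjustment. Endothelial-like cells changed more than APC-like cells in 11 mitochondrial-encoded members. The difference in log2 fold change was 0.51 for mt-Nd4, 0.49 for mt-Co3, 0.49 for mt-Nd4l, 0.48 for mt-Nd5, 0.48 for mt-Atp8, 0.47 for mt-Cytb, 0.47 for mt-Co1, 0.46 for mt-Nd2, 0.46 for mt-Nd3, 0.42 for mt-Atp6 and 0.39 for mt-Nd1. These members share precursor RNAs and a library total, so they are not 11 separate observations. Adipocyte-like cells changed more than APC-like cells in Atp5g1, by 0.74.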

How the results depend on the processing

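The TAN over Ad-Lib log2 ratio of the mitochondrial-encoded sum kept its sign under all alternatives run in 9 of 10 classes. The exception, mural-like cells, ranged over -0.04 to 0.13 with 1 library left out, and the nuclear-encoded log2 ratio changed sign under some alternatives in dendritic-like, mural-like and Schwann-like cells, where it was near 0. Adipocyte-like counts moved most. Mitochondrial-encoded members called there went from 1 to 6 with a 20% mitochondrial limit, 8 with none, 6 with no minimum change and 0 with members among the variable genes, with Leiden resolution 2 or in cells from 2000 UMIs, and those under an adjusted p of 0.05 from 6 to 11, 13, 1 (variable genes) and 0 (2000 UMIs). Nuclear-encoded members called went from 1 to 2 (20% limit), 4 (no limit), 2 (variable genes), 3 (resolution 2) and 0 (2000 UMIs), and those under an adjusted p of 0.05 to 3, 19, 2, 10 and 0, with 7 after doublet removal and 2 without the low-count filter. The adipocyte-like log2 ratio of the mitochondrial-encoded sum was 0.39, 0.57 with a 20% limit and 0.65 without one, and the nuclear-encoded one 0.22, and 0.36 at resolution 2. The difference from APC-like cells without the limit was called for 7 and passed an adjusted p of 0.05 for 12 mitochondrial-encoded and 5 nuclear-encoded members.

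In endothelial-like cells 4 mitochondrial-encoded members were called with members among the variable genes, and nuclear-encoded members under an adjusted p of 0.05 were 1 by DESeq2 and 2 without the filter. In macrophage-like cells the 1 mitochondrial-encoded member became 8 by DESeq2, 2 without the filter and 0 without the limit, at resolution 2, with doublets removed or from 2000 UMIs, and 1 was called with no minimum change. In T/ILC-like cells called mitochondrial-encoded members went from 2 to 1 (20% limit), 0 (no limit), 1 (doublets removed) and 5 (no minimum change), those under an adjusted p of 0.05 from 5 to 8 (DESeq2), 1, 0 and 1, and nuclear-encoded ones without the filter to 1 called and 3. DESeq2 placed 2 mitochondrial-encoded members in APC-like cells. In erythroid-like cells DESeq2 and the unfiltered test each found 1. The dendritic-like log2 ratio was 0.24, and 0.47 as a mean of single-cell shares, and the erythroid-like one 1.01, and 1.59 with doublets removed. The causes were not tested.

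With 1 library left out in turn, the log2 ratio of the mitochondrial-encoded sum ranged over 0.50 to 0.63 in endothelial-like, 0.35 to 0.45 in adipocyte-like, 0.26 to 0.39 in T/ILC-like, 0.14 to 0.28 in APC-like and 0.83 to 1.15 in erythroid-like cells. Called mitochondrial-encoded members ranged over 2 to 12 in endothelial-like, 0 to 2 in adipocyte-like (0 without Ad-Lib 1, TAN 2 or TAN 6, 2 without Ad-Lib 5) and 0 to 3 in T/ILC-like cells, and those under an adjusted p of 0.05 over 10 to 13, 2 to 6, 0 to 9 (9 without Ad-Lib 3) and, in macrophage-like cells, 0 to 1. Nuclear-encoded members called ranged over 0 to 2 in adipocyte-like and T/ILC-like cells (2 without Ad-Lib 3 in the latter), and under an adjusted p of 0.05 over 0 to 2 and 0 to 6, and 0 to 1 in endothelial-like cells (1 without Ad-Lib 3 or TAN 8). Differences from APC-like cells under an adjusted p of 0.05 ranged over 1 to 11 mitochondrial-encoded members for endothelial-like, 0 to 2 for adipocyte-like (2 without TAN 8) and 0 to 4 for T/ILC-like cells (4 without Ad-Lib 3), and over 0 to 1 nuclear-encoded members for adipocyte-like and T/ILC-like cells, with called differences at 0 to 1 for both kinds of member.

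An alternative chosen after seeing the data took the classes of the clustering without a limit and put the 10% limit back on their cells. This gave values with and without the limit in the same classes. Adipocyte-like nuclear-encoded members were then 3 called and 15 under an adjusted p of 0.05, their log2 ratio of the sum 0.35, their differences from APC-like cells 2 by either rule, and T/ILC-like mitochondrial-encoded members 1 by either rule.

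Among named genes mt-Cytb and mt-Co3 in endothelial-like cells kept the call in 15 of 15 alternatives, mt-Atp6 in 12, Atp5g1 in adipocyte-like cells in 13 (log2 fold changes 0.65 to 1.62, adjusted p = 0.000971 to 0.0605), and mt-Nd4l there in 9. In T/ILC-like cells mt-Cytb kept it in 9 and mt-Atp6 in 5. Mural-like cells could not be named after doublet removal. Adipocyte-like depth (median 1112 UMIs) left 3499 genes to test. No paired analysis was possible because the groups share no replicate number.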

Other observations

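Some values lay outside the named classes. The largest unnamed cluster, 2085 cells with a median of 1071 UMIs led by Rflnb, Pkp4 and C130074G19Rik, had a mitochondrial-encoded sum of 34635 CPM in Ad-Lib and 49659 in TAN, a log2 ratio of 0.52 without overlap of the libraries, and a nuclear-encoded log2 ratio of 0.06 with overlap. Another unnamed cluster of 962 cells, led by Inmt, Bgn and Cxcl14 and also shallow (median 1041 UMIs), had log2 ratios of 0.10 and 0.02, both overlapping. The cluster led by histone and cycling genes such as Mki67 and Top2a, with 331 cells, had a nuclear-encoded sum of 18186 CPM in Ad-Lib and 22638 in TAN, overlapping.

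The makeup of the mitochondrial-encoded sum also varied. mt-Nd6 made up 0.119 ± 0.0144% of it in APC-like cells (SD over 8 libraries), 0.167 ± 0.0105% in endothelial-like and 0.0745 ± 0.0293% in B-like cells. In APC-like cells its share was 0.109 ± 0.00709% in Ad-Lib and 0.128 ± 0.0135% in TAN. In T/ILC-like cells it was 0.104 ± 0.00819% in Ad-Lib and 0.0812 ± 0.00624% in TAN, and in macrophage-like cells 0.126 ± 0.0166% and 0.101 ± 0.0112%. These shares were not tested.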
